A study of Mus musculus with 6 samples.

Results

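The replication-dependent histone genes of the mouse were followed in blastocysts that had been cultured with vesicles from human Fallopian tubes. They were taken as every gene of the deposited expression table whose GENCODE M21 symbol begins with Hist1h, Hist2h, Hist3h or Hist4h. The rule found 70 of 55774 genes in the table, and their symbols divided them into 6 H1, 20 H2A, 19 H2B, 12 H3 and 13 H4 genes. The annotation lists 67 of them as protein-coding and Hist1h2aj, Hist1h2al and Hist3h2bb-ps as pseudogenes. No measured value entered the rule.

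Wild-type two-cell embryos were collected from the oviducts of ICR females and grown in CZB medium to which extracellular vesicles (oEVs) had been added. The oEV-EMT group received vesicles of women with endometriosis, and the oEV-ctrl group received vesicles of women whom the labels describe as having uterine fibroids, whereas the study's methods name another reason for surgery. Each group had 3 libraries, each made from a pool of 10 blastocysts, and no group without vesicles was sequenced, so every value is a contrast of vesicle sources. The unit of expression is FPKM, in which fragments are divided by transcript length and by the fragments of the library.

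Histones are the proteins around which DNA is wound. The core of a nucleosome holds H2A, H2B, H3 and H4 in equal numbers, and H1 binds the linker DNA between nucleosomes. Replication-dependent histone genes are transcribed mainly in S phase, when new DNA has to be packaged, and a cleaving embryo draws on them at every division. Their mRNAs are unusual in that most carry no poly(A) tail. The transcript ends shortly after a conserved stem-loop, which is bound by the protein encoded by Slbp, and a cut that needs the U7 small nuclear ribonucleoprotein makes the end. The libraries here were selected with oligo(dT) beads, so what was measured is the part of histone RNA that is polyadenylated or that was carried through the selection, and these parts cannot be told apart from the values.

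The stem-loop could be read in the annotated transcripts of the members, and 6 copies are shown because they cover every class and come from genes whose values are given here. A search on the sense strand after the stop codon for 16 bases that read GG, any 2 bases, CTTTT, any base, AG, any 2 bases and CC found it in 44 of the 52 members whose annotated 3′ UTR had at least 16 bases, 84.6%. The same search found it in 17 of 21018 other protein-coding genes, 0.0809%. It began from 21 to 58 bases after the stop codon, with a median of 31. The lines below give the sense strand, 5′ to 3′, with the stem-loop in capitals.
Hist1h2ao (H2A), chr13:21810893-21810918, plus strand: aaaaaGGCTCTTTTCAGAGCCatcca
Hist1h2ad (H2A), chr13:23574890-23574915, plus strand: acaaaGGCTCTTTTCAGAGCCatcca
Hist1h3c (H3), chr13:23745042-23745067, minus strand: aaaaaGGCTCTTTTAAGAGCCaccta
Hist1h2bk (H2B), chr13:22036295-22036320, plus strand: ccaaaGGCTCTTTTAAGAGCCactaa
Hist1h4d (H4), chr13:23581945-23581970, plus strand: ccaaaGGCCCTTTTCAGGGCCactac
Hist1h1c (H1), chr13:23739507-23739532, plus strand: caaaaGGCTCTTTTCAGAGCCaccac
Coordinates are those of GENCODE M21 on GRCm38, the assembly that mm10 also denotes. The form of Hist1h2ao, Hist1h2ad and Hist1h1c occurred in 26 members, that of Hist1h4d in 7 and that of Hist1h3c and Hist1h2bk in 6. The annotation continued 31 bases past the stem-loop in Hist1h2ao and 770 bases past it in Hist1h4d. For another 15 members the annotated transcript ended at the stop codon, so that the search had no sequence to read.

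Of the 70 genes, 56 lay on chromosome 13 between positions 21715763 and 51203065, 10 on chromosome 3, 3 on chromosome 11 and 1 on chromosome 6. Levels were very uneven. The mean over the 6 libraries was under 1 FPKM for 30 members and over 10 FPKM for 6, and Hist2h2aa2 was listed at 0 in every library. The filter of at least 1 FPKM in at least 3 libraries left 37 members to be tested, namely 3 H1, 14 H2A, 6 H2B, 8 H3 and 6 H4 genes. Of these, 23 reached 1 FPKM in every library, while Hist1h2aj and Hist1h2af passed through the oEV-ctrl libraries alone and Hist1h3d through the oEV-EMT libraries alone. Counts over the tested genes are therefore descriptions, and sums over all 70 genes are given beside them.

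H2A mRNA was lower and H3 mRNA higher in the blastocysts cultured with oEV-EMT when the FPKM of each class were summed. The 20 H2A genes together had 411, 426 and 333 FPKM with oEV-EMT and 490, 461 and 645 FPKM with oEV-ctrl. The 12 H3 genes together had 21.3, 27.6 and 22.5 FPKM with oEV-EMT and 14.0, 10.8 and 16.8 FPKM with oEV-ctrl. In neither class did the groups overlap in FPKM as deposited. The library sums differed, from 1.29e+06 FPKM in oEV-EMT 1 to 1.55e+06 FPKM in oEV-ctrl 1. Divided by these sums, the H2A value of oEV-EMT 1 lay just above that of oEV-ctrl 1. The H2A groups then overlapped, while the H3 groups stayed apart. The means were 390 ± 49.7 against 532 ± 99.2 FPKM for H2A (SD, n = 3 per group), so the level with oEV-ctrl was 1.36-fold that with oEV-EMT. For H3 they were 23.8 ± 3.35 against 13.9 ± 2.997 FPKM, 1.72-fold higher with oEV-EMT. In pools of whole blastocysts, fewer cells of a type and less RNA per cell cannot be told apart.

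H1, which had 19.7, 29.7 and 29.6 FPKM with oEV-EMT and 42.2, 30.9 and 36.6 FPKM with oEV-ctrl, did not overlap between the groups and was lower with oEV-EMT, although the nearest values were 29.7 and 30.9. The groups overlapped for H2B, with 29.3, 34.8 and 18.9 against 20.5, 19.1 and 22.3 FPKM. They overlapped for H4 as well, with 99.9, 63.9 and 79.1 against 67.6, 93.0 and 78.2 FPKM. The sum over all 70 genes was 581, 582 and 483 FPKM with oEV-EMT and 634, 615 and 799 FPKM with oEV-ctrl. As a share of the library sum, it was 0.0449%, 0.0430% and 0.0357% against 0.0409%, 0.0457% and 0.0579%, and there the groups overlapped. Most of the histone sum came from few genes, since Hist1h2ao and Hist1h2ap held 57.5% to 67.7% of it in each library. Without these and Hist1h4d the groups overlapped, at 167, 181 and 145 against 193, 171 and 199 FPKM.

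**Figure D1:**
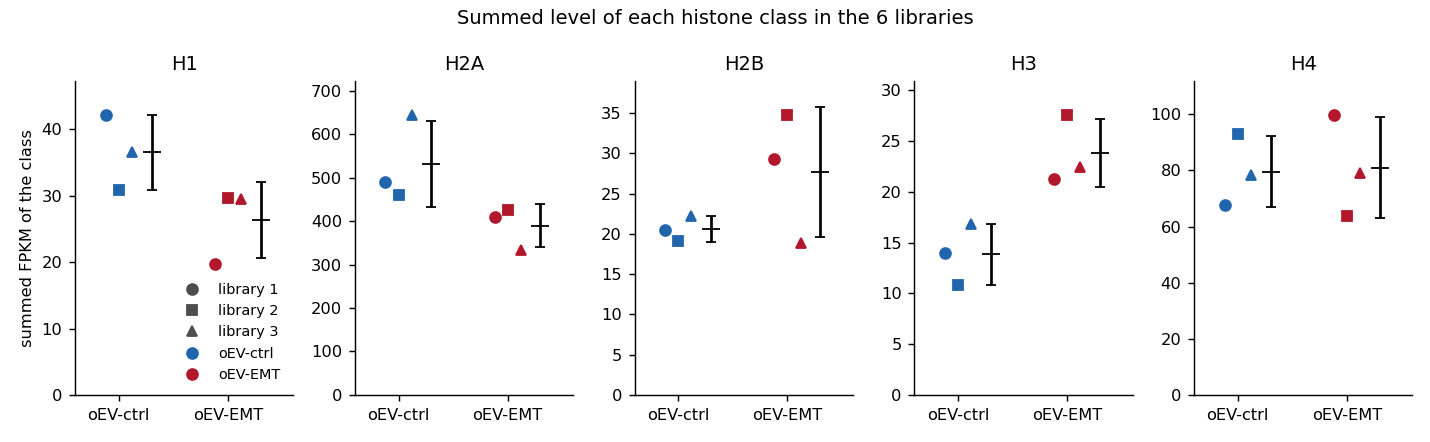
Summed FPKM of the H1, H2A, H2B, H3 and H4 genes in each library, with the mean and SD of the 3 libraries per group (black) and a separate vertical axis from 0 for each class. The oEV-EMT points lie below the oEV-ctrl points for H1 and H2A and above them for H3, and they overlap for H2B and H4.

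Ratios between classes within a library do not depend on how the libraries were scaled. The summed FPKM of H2A was 19.3, 15.4 and 14.8 times that of H3 in the oEV-EMT libraries and 35.1, 42.5 and 38.3 times in the oEV-ctrl libraries. The groups were thus separated by a gap wider than either group's own range, with means of 16.5 ± 2.42 and 38.6 ± 3.71. The ratio of H2A to H2B was 14.0, 12.2 and 17.6 with oEV-EMT and 23.9, 24.1 and 29.0 with oEV-ctrl, again without overlap. The ratio of H3 to H1 was 1.08, 0.930 and 0.761 against 0.330, 0.350 and 0.460. The ratio of H3 to H2B overlapped between the groups, at 0.728, 0.793 and 1.19 against 0.682, 0.568 and 0.756. The ratio of H2A to H4 overlapped as well, at 4.11, 6.66 and 4.21 against 7.25, 4.95 and 8.25. With Hist1h2ao and Hist1h2ap left out, the ratio of H2A to H3 was 2.83 ± 0.628 with oEV-EMT and 7.28 ± 1.29 with oEV-ctrl, so the separation was also seen in the remaining H2A genes. FPKM were divided by annotated transcript length, and the absolute size of such a ratio depends on that annotation.

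**Figure D2:**
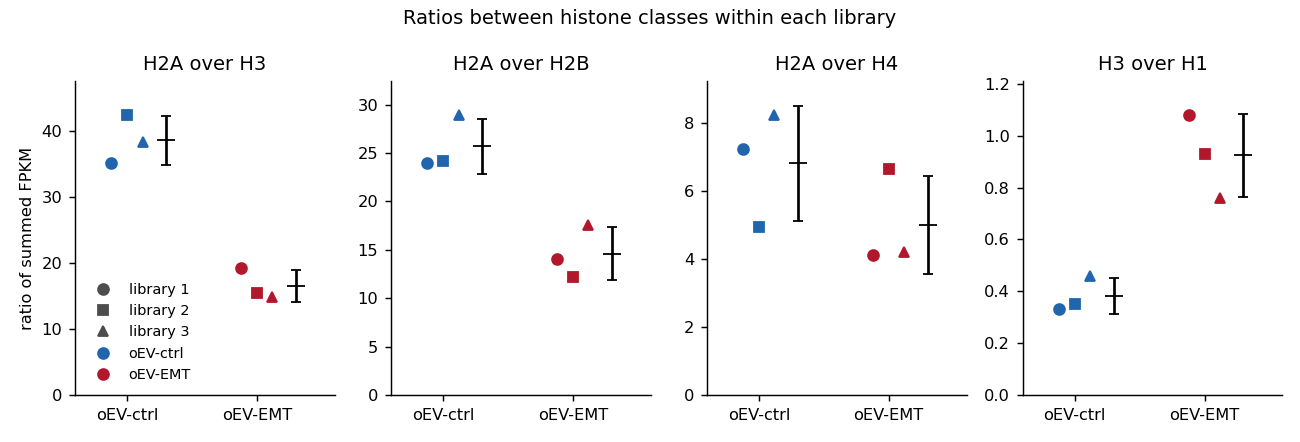
Ratio of the summed FPKM of histone classes within each library, with the mean and SD per group (black) and vertical axes from 0. The ratio of H2A to H3 lies between 14.8 and 19.3 with oEV-EMT and between 35.1 and 42.5 with oEV-ctrl, whereas the ratio of H2A to H4 overlaps.

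No histone gene met the threshold, an adjusted p no larger than 0.05 together with a log2 fold change of 1 or more in size, when limma was fitted over the whole table, and neither did any of the 11924 genes tested (0%). The smallest adjusted p over all genes was 0.0934, and the smallest among the histone genes was 0.101. At an unadjusted p of at most 0.05, 7 of the 37 tested histone genes were higher with oEV-EMT, where the share over all genes was 12.8%, and 8 were lower, where it was 2.55%. The count of higher genes fell to 2 without the second oEV-ctrl library. That of lower genes became 14 when the libraries were scaled by the median of ratios or the upper quartile. Both scalings also moved the median of all genes from 0.17 to 0.01, and the shares of all genes under these alternatives were not counted. Among all genes tested, 1527 were higher and 304 lower at an unadjusted p of at most 0.05 in the limma fit without scaling. The oEV-EMT libraries lay entirely above the oEV-ctrl libraries in 10 histone genes, against 18.1% of all genes, and entirely below them in another 10, against 4.34% of all genes. Hist1h3d above, and Hist1h2aj and Hist1h2af below, passed the filter through the libraries of a single group. They could only fall on these sides. An exact permutation test of 3 libraries against 3 cannot give a two-sided p below 0.1, so no single gene could pass 0.05 by that test.

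The classes did not share a direction. The log2 fold change, taken as oEV-EMT minus oEV-ctrl on the scale of log2(FPKM + 1), had a median of 0.17 over all tested genes, and class medians are given relative to it. They were -0.70 for the 14 tested H2A genes, -0.41 for the 3 H1 genes, 0.08 for the 6 H2B genes, 0.12 for the 6 H4 genes and 0.47 for the 8 H3 genes. Of the tested H2A genes, 13 of 14 lay below the median of all genes, and all 8 tested H3 genes lay above it, as did all 6 tested H2B genes. By definition 50% of all genes lie above it. Without the median as reference, 21 of the 37 tested members had a log2 fold change above 0, against 70.1% of all genes. Hist1h2aj and Hist1h2af could only lie below 0 and Hist1h3d only above it, because each passed the filter through a single group. Among the 23 genes that reached 1 FPKM in every library, 8 of the 10 H2A genes lay below 0 and all 4 H3 genes above it. The relative medians of these H2A and H3 genes were -0.62 and 0.61. Over all 37 tested members the opposite classes nearly cancelled, at 0.03.

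**Figure D3:**
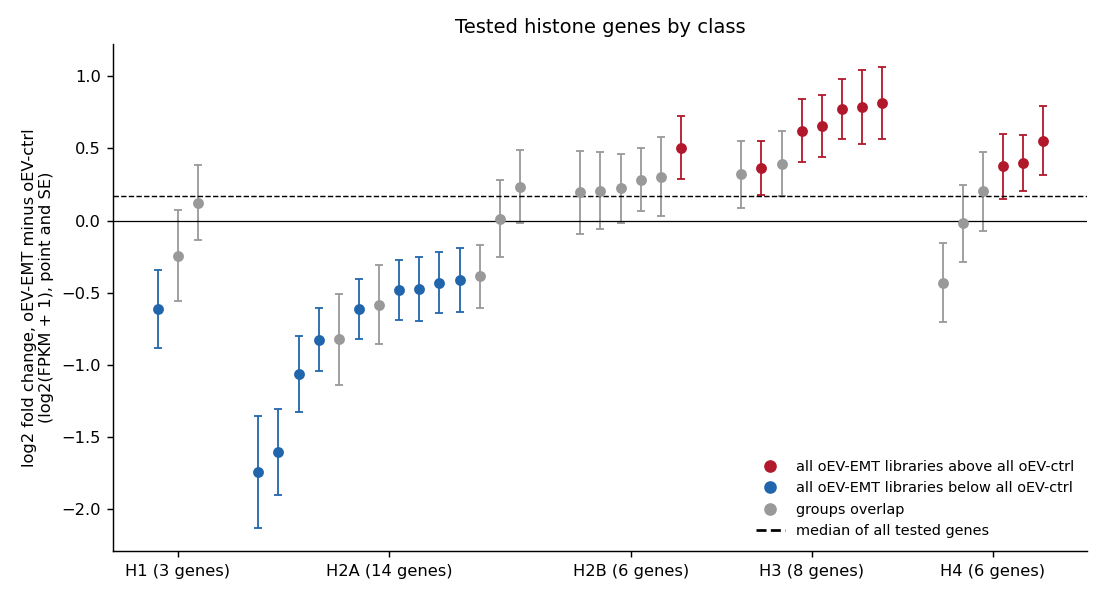
Log2 fold change of the 37 tested histone genes on the log2(FPKM + 1) scale, each with its standard error, ordered within classes. Red and blue points mark genes whose groups do not overlap, the dashed line is the median of all tested genes at 0.17, and 13 of the 14 H2A genes lie below it while all 8 H3 genes lie above it. Among them Hist1h2aj and Hist1h2af passed the filter through the oEV-ctrl libraries alone and Hist1h3d through the oEV-EMT libraries alone.

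The H2A genes Hist1h2ao and Hist1h2ap had the highest levels of all members, with means of 199 and 179 FPKM over the 6 libraries, and Hist1h4d followed with 61.3 FPKM. Hist1h2ao had 175, 183 and 148 FPKM with oEV-EMT and 207, 196 and 286 FPKM with oEV-ctrl, a log2 fold change of -0.43 ± 0.21 (SE, adjusted p = 0.361). All its oEV-EMT values were below all its oEV-ctrl values. Hist1h2ap had 159, 175 and 130 against 186, 170 and 255 FPKM, and there the groups overlapped (log2 fold change -0.38, adjusted p = 0.426). Hist1h2ae, with 33.2, 22.5 and 17.5 against 20.6, 21.2 and 29.2 FPKM, had a log2 fold change of 0.01. It was the H2A gene of high level that showed no difference in either direction.

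The largest log2 fold changes of any histone gene were those of H2A genes with low levels. The pseudogene Hist1h2aj had 0.815, 0.931 and 0.237 FPKM with oEV-EMT and 5.50, 4.75 and 2.23 FPKM with oEV-ctrl (log2 fold change -1.60 ± 0.30, adjusted p = 0.101). Hist1h2an had 0.780, 1.63 and 0.886 against 9.59, 7.76 and 2.55 FPKM (log2 fold change -1.74 ± 0.39, adjusted p = 0.135). In both, the third oEV-ctrl library was the lowest of its group and nearest to the oEV-EMT values. Without that library limma called 17 genes over the whole table. Among them were Hist1h2an at -2.22 (adjusted p = 0.0241) and Hist1h2aj at -1.91 (adjusted p = 0.0314). Leaving out the value nearest to the other group widens the contrast by itself, so these calls add no separate support. Hist1h2af, at 0.496, 0.642 and 0.394 against 3.45, 2.19 and 1.20 FPKM, had a log2 fold change of -1.06 (adjusted p = 0.157). Like Hist1h2aj, Hist1h2af passed the filter through the oEV-ctrl libraries alone.

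Hist1h2ad and Hist1h2ai had higher levels and smaller spreads. Hist1h2ad had 7.25, 5.001 and 5.54 FPKM with oEV-EMT and 11.1, 10.9 and 11.5 FPKM with oEV-ctrl, so its control libraries were close together and well above the others (log2 fold change -0.82, adjusted p = 0.164). Hist1h2ai had 8.04, 7.42 and 7.97 against 12.6, 10.99 and 14.0 FPKM (log2 fold change -0.61, adjusted p = 0.221). The pseudogene Hist1h2al, at 0.511, 2.45 and 0.919 against 2.13, 3.88 and 2.63 FPKM, overlapped between the groups in spite of a log2 fold change of -0.82 (adjusted p = 0.260). Outside chromosome 13, Hist2h2ac had 2.64, 2.72 and 2.42 against 3.37, 3.66 and 5.06 FPKM and Hist2h2aa1 2.81, 2.79 and 2.24 against 4.49, 3.04 and 3.94 FPKM, both lower without overlap. Hist3h2a on chromosome 11 went the other way at 0.24, with overlapping groups.

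The H3 genes had low levels, with a mean of at most 3.70 FPKM over the 6 libraries. Of the 8 tested, 6 were higher in every oEV-EMT library than in the oEV-ctrl libraries, against 18.1% of all genes. Hist1h3d was among these 6, but it passed the filter through the oEV-EMT libraries alone, so its lack of overlap follows from the filter. The 4 H3 genes that reached 1 FPKM in every library all lay above without overlap. Hist1h3g had 3.60, 3.69 and 3.65 FPKM with oEV-EMT and 1.87, 1.39 and 1.93 FPKM with oEV-ctrl (log2 fold change 0.77 ± 0.21, adjusted p = 0.164). Its oEV-EMT values were nearly equal, with an SD of 0.0471. Hist1h3i had 4.27, 4.11 and 3.71 against 1.87, 1.13 and 2.81 FPKM (0.81, adjusted p = 0.194). Hist1h3h had 3.30, 6.78 and 4.97 against 2.44, 2.15 and 2.57 FPKM (0.79, adjusted p = 0.208), with the second oEV-EMT library the highest.

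Hist1h3c, at 3.04, 3.32 and 2.83 against 1.35, 1.36 and 2.09 FPKM, had a log2 fold change of 0.66 (adjusted p = 0.211). Hist1h3a, at 1.33, 2.09 and 1.71 against 0.495, 0.665 and 1.15 FPKM, had one of 0.62 (adjusted p = 0.232). The H3 genes of chromosome 3 did not share this direction. Hist2h3b, Hist2h3c1 and Hist2h3c2 together had 0.944, 1.76 and 0.917 FPKM with oEV-EMT and 2.98, 1.39 and 2.17 FPKM with oEV-ctrl, with overlapping groups and a lower oEV-EMT mean.

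**Figure D4:**
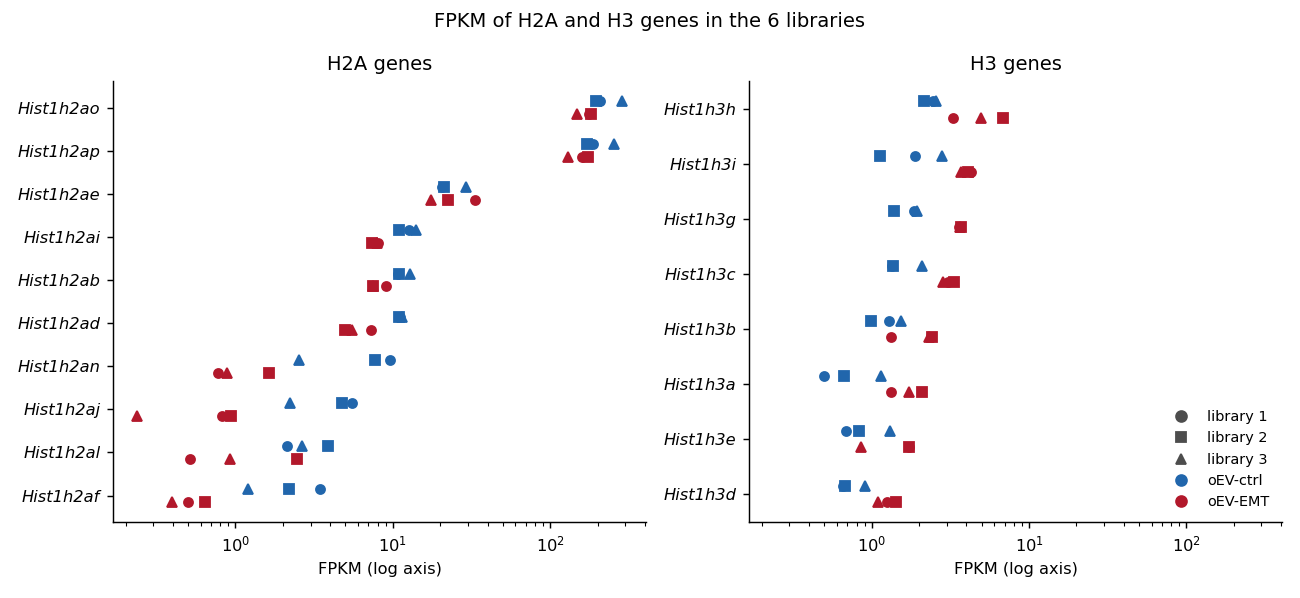
FPKM of 10 H2A genes and of the 8 tested H3 genes in each library on a log axis, with oEV-EMT in red, oEV-ctrl in blue and a marker shape for each library number. Hist1h2ad, Hist1h2an, Hist1h2aj and Hist1h2af lie lower with oEV-EMT and Hist1h3g, Hist1h3i, Hist1h3h and Hist1h3c lie higher, in each case without overlap.

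Among the H2B genes, Hist1h2bk alone had groups that did not overlap, at 4.42, 5.60 and 3.70 FPKM with oEV-EMT and 2.85, 2.85 and 2.95 FPKM with oEV-ctrl (log2 fold change 0.51, adjusted p = 0.309). That is 1 of the 6 tested H2B genes, 16.7%, close to the 18.1% of all genes that lay entirely above with oEV-EMT. Hist1h2bc, the highest H2B gene, had 7.85, 7.999 and 4.15 against 6.26, 4.90 and 5.23 FPKM and a log2 fold change of 0.21. Hist1h2bg, at 5.51, 5.29 and 2.27 against 3.36, 3.14 and 3.92 FPKM, had one of 0.20. In both genes the third oEV-EMT library was the lowest of all 6. Hist1h2bl had a log2 fold change of 0.30 and overlapping groups.

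H4 was dominated by Hist1h4d, whose 79.2, 43.9 and 60.6 FPKM with oEV-EMT and 48.1, 77.1 and 59.0 FPKM with oEV-ctrl covered the same range in both groups (log2 fold change -0.02, adjusted p = 0.982). Hist1h4i, at 8.59, 6.51 and 4.34 against 10.9, 6.76 and 9.19 FPKM, had a log2 fold change of -0.43 and overlapping groups. Genes at lower levels included some that lay higher with oEV-EMT. Hist1h4k had 1.52, 2.87 and 2.60 against 1.43, 0.873 and 1.43 FPKM (0.55, adjusted p = 0.302), and Hist1h4h had 1.77, 3.07 and 1.74 against 1.22, 1.53 and 1.52 FPKM (0.38, adjusted p = 0.453). Neither group overlapped the other in these genes, while Hist1h4n at 0.20 overlapped.

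Of the linker histones, Hist1h1b had the highest level, at 11.4, 21.4 and 22.7 FPKM with oEV-EMT and 30.6, 25.5 and 27.1 FPKM with oEV-ctrl (log2 fold change -0.61 ± 0.27, adjusted p = 0.315). The first oEV-EMT library was the lowest, and all 3 lay under the oEV-ctrl libraries. Hist1h1a, at 3.57, 3.51 and 4.62 against 3.61, 2.30 and 4.86 FPKM, and Hist1h1c, at 4, 3.76 and 1.65 against 5.65, 2.59 and 3.37 FPKM, overlapped. Hist1h1e had 0.378, 0.373 and 0.101 against 1.71, 0.213 and 0.860 FPKM and did not pass the filter.

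Histone genes are near-copies of each other, and how reads were divided among them bears on every value of a single gene. When GENCODE M21 transcripts were cut into stretches of 50 bases, 62 of the 70 members had at least 10% of their stretches in another gene and 36 had at least 50%. Hist1h2ao shared 93.5% of its stretches, mostly with Hist1h2ap, Hist1h2aj shared 93.1% and Hist1h3h 93.9%. By contrast Hist1h1b and Hist1h1a shared 0%, Hist1h1c 8.54% and Hist1h4d 10.2%. The single-gene values of the strongly shared genes are thus uncertain, and sums over copies are less so.

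Genes were joined into a copy group where at least 50% of the stretches of a member were shared with the other. The 12 Hist1 H2A genes joined in this way had 401, 413 and 324 FPKM with oEV-EMT and 477, 447 and 631 FPKM with oEV-ctrl. A group of Hist1h2al, Hist2h2aa1 and Hist2h2aa2 had 3.32, 5.24 and 3.16 against 6.62, 6.92 and 6.56 FPKM. Both H2A groups were lower with oEV-EMT without overlap in FPKM as deposited. The 9 Hist1 H3 genes had 20.4, 25.9 and 21.6 against 10.98, 9.45 and 14.7 FPKM, a 1.93-fold higher mean with oEV-EMT. The 6 joined H4 genes, among them Hist1h4k and Hist1h4h, had 7.16, 9.60 and 8.58 against 5.31, 4.90 and 5.17 FPKM, 1.65-fold higher without overlap, whereas the 11 joined H2B genes overlapped. The differences of H2A and of the Hist1 H3 genes were also present in sums over near-copies. With oEV-EMT the groups of 12 H2A and 9 H3 genes held 379 and 22.6 FPKM of the class means of 390 and 23.8 FPKM. Their sums thus largely repeat the class sums and add no separate support. The joined Hist2h3b, Hist2h3c1 and Hist2h3c2 went the other way, with means of 1.21 against 2.18 FPKM and overlapping groups. Genes outside the set were not joined, and Hist1h2ao shared 19.0% of its stretches with H2afx. Hist2h2aa1 shared 100% with Gm20633 and Hist2h3b 100% with Gm20628. Hist2h3c1 shared 100% and Hist2h3c2 63.5% with Gm20634. The values of these chromosome 3 genes cannot be separated from those entries. All 20 H2A genes also overlap an annotated gene on the opposite strand, which was listed at 0 in every library for 15 of them. The sources used here do not say that the counting kept the strand, so reads of the opposite strands cannot be told apart.

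Most H2A genes face an H2B gene across a short shared promoter. Within 500 bases, 14 such divergent pairs were found, with 173 to 306 bases between the annotated starts. The ratio of mean FPKM, oEV-EMT over oEV-ctrl, was lower for the H2A than for the H2B gene in 13 of the 14 pairs. Of all members, 16 of the 20 H2A genes had a lower and 16 of the 19 H2B genes a higher mean with oEV-EMT. The count of pairs thus largely repeats the class difference and does not bear on the shared promoters. The exception among the pairs was that of Hist1h2aa and Hist1h2ba, with log2 ratios of 1.01 and -0.20 at means under 1 FPKM. For Hist1h2ad and Hist1h2bf, 185 bases apart, the log2 ratios were -0.91 and 0.76. For Hist1h2ai and Hist1h2bl, 279 bases apart, they were -0.68 and 0.57, and for Hist1h2ao and Hist1h2bq, 268 bases apart, -0.45 and 0.18. Both genes passed the filter in 3 pairs only, and the H2A change was the lower in all 3. Many of the H2B partners had means below 1 FPKM, the pairs share sequence with each other, and they are not independent of each other.

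**Figure D5:**
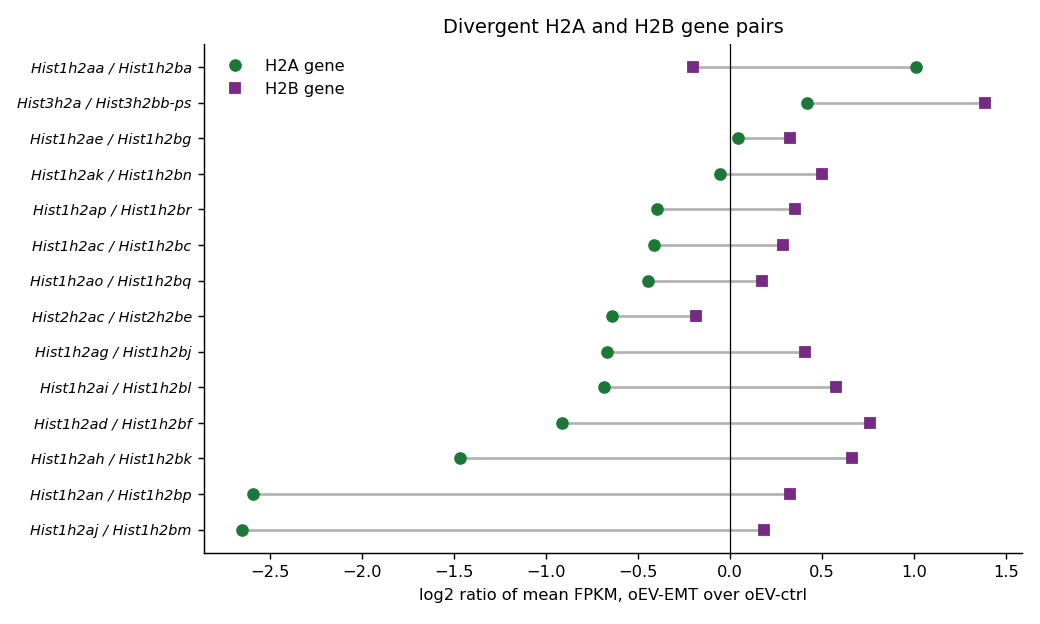
Log2 ratio of mean FPKM, oEV-EMT over oEV-ctrl, of the H2A gene (green circle) and the H2B gene (purple square) of each divergent pair, joined by a line. The H2A gene lies to the left of its H2B partner in 13 of the 14 pairs, and the exception is the pair of Hist1h2aa and Hist1h2ba at the top.

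The promoters of an H2A and an H3 gene on opposite sides of the comparison are shown, since every matched window of these classes held CCAAT. RefSeq promoters (GRCm38.p6, from 250 bases before to 50 bases after the start) were matched for 60 of the 70 members. Runs of CCAAT, on either strand, and of TATAAA, on either strand, are in capitals.
Hist1h2ad, chr13:23574131-23574430, plus strand: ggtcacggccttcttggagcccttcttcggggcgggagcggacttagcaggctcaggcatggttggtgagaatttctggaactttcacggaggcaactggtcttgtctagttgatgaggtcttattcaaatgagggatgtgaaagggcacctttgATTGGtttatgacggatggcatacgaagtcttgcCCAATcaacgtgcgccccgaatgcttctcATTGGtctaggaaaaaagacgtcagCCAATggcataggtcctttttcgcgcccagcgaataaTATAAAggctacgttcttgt
Hist1h3h, chr13:21717378-21717677, plus strand: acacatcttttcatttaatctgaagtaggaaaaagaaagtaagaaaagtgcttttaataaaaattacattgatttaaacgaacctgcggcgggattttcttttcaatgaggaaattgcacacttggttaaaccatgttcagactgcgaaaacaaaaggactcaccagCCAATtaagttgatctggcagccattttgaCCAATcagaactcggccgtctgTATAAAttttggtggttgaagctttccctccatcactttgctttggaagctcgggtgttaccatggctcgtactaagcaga
The window of Hist1h2ad reaches back past the start of Hist1h2bf, its divergent partner, and holds CCAAT 4 times. The first bases of these runs lie at positions -95, -61, -32 and -7 from the RefSeq start, and TATAAA lies at 31, past that start. In Hist1h3h, CCAAT lies at -83 and -53 and TATAAA at -31.

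CCAAT was found on either strand in the windows of all 17 H2A, 16 H2B, 10 H3 and 5 H1 genes matched and in 3 of 12 H4 genes. The share was 85.0% of the members and 37.4% of 32851 RefSeq promoters of the same length. TATAAA was found in 56.7% of the members and 13.6% of all promoters. The octamer ATTTGCAT, known from H2B promoters, was found in 7 of 17 H2A windows, in 6 of 16 H2B windows and in none of the other classes, 21.7% of the members against 1.74% of all promoters. CCAAT was thus present both in the H2A genes, which lay lower with oEV-EMT, and in the H3 genes, which lay higher. These motifs do not overlap in letters, and a match in a window describes its sequence only. Windows of divergent H2A and H2B partners overlap, as those of Hist1h2ae and Hist1h2bg do, so the same site can be counted for both genes.

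The genes that make, escort and process histone mRNA and protein were read from lists, and none of their members passed the thresholds. Of 20 tested genes for the processing and decay of histone mRNA, 1 was higher and 2 were lower at an unadjusted p of at most 0.05, where 12.8% of all genes were higher and 2.55% lower. Slbp, which encodes the stem-loop binding protein, had 96.3, 98.0 and 69.8 FPKM with oEV-EMT and 70.0, 77.8 and 91.7 FPKM with oEV-ctrl, a log2 fold change of 0.13 (adjusted p = 0.798). Npat, the coactivator of histone gene transcription, had 4.61, 2.72 and 2.58 against 4.13, 3.91 and 4.05 FPKM (-0.26, adjusted p = 0.638). Both overlapped. Casp8ap2, which acts at histone locus bodies, had 4.96, 5.54 and 5.22 against 6.97, 8.21 and 10.49 FPKM without overlap (-0.60, adjusted p = 0.253). The proteins Snrpb and Snrpe belong to the Sm ring of spliceosomal and U7 particles, and their log2 fold changes were 0.55 and -0.81.

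Of 19 tested histone chaperones and import factors, 2 were higher and 0 lower at that level, against 12.8% and 2.55% of all genes. These were Chaf1b, a subunit of the chromatin assembly factor CAF-1, at 0.80 and Asf1a, an H3-H4 chaperone, at 0.47 (adjusted p = 0.232 and 0.316). Another 10 tested histone genes were listed as replication-independent with polyadenylated mRNAs. Of these, 3 were higher and 0 lower at that level, against the same shares of all genes, and 6 of the 10 had a log2 fold change under the 0.17 of the table as a whole. H2afx was among these 3, although its annotated mRNA also carries the stem-loop, so its place in the list is uncertain. It had 50.1, 49.6 and 44.4 FPKM with oEV-EMT and 30.9, 18.3 and 29.9 FPKM with oEV-ctrl (0.88, adjusted p = 0.164), the opposite side from most H2A genes of the rule. H2afv, a gene for an H2A.Z protein, had a log2 fold change of 0.49. H2afy, a macroH2A gene, was lower in every oEV-EMT library than in the oEV-ctrl libraries, at a log2 fold change of -0.29.

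Of 22 tested genes of S-phase entry and DNA replication, all with polyadenylated mRNAs, 9 were higher and 0 lower at an unadjusted p of at most 0.05, against 12.8% and 2.55% of all genes, with a median of 0.23 relative to all genes. Cdc6, which loads the replicative helicase, had 28.6, 26.0 and 26.3 against 11.7, 9.96 and 20.5 FPKM (0.96, adjusted p = 0.171). Tk1, thymidine kinase, had 112, 143 and 141 against 65.0, 72.1 and 97.3 FPKM (0.76, adjusted p = 0.174). The summed level of the list was 869 to 878 FPKM with oEV-EMT and 560 to 754 FPKM with oEV-ctrl, and so moved with H3 and against H2A. Whether S-phase content has a part in the histone values was not tested.

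Since the selection for poly(A) bears on histone mRNA, 9 tested RNAs that have no poly(A) tail were read as well. Rn7sk, the 7SK RNA, had 19.6, 6.74 and 13.4 FPKM with oEV-EMT and 25.3, 30.3 and 26.7 FPKM with oEV-ctrl (-1.10, adjusted p = 0.183), in the direction of H2A. Rn7s1 and Rn7s2, the RNA of the signal recognition particle, had log2 fold changes of 1.42 and 1.33, which rested on the first oEV-EMT library, at 388 FPKM for Rn7s1 where the other 5 had 23.3 to 43.6. The summed level of the list was 101 to 789 FPKM with oEV-EMT and 92.1 to 121 FPKM with oEV-ctrl. The RNAs of this list therefore had no common direction, and the part of the poly(A) selection in the histone values was not tested.

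The blastocyst identity was checked by markers. All 4 epiblast, 6 trophectoderm and 4 primitive endoderm markers passed the filter, while 0 of 5 cumulus and granulosa markers and 0 of 3 oviduct markers did, with Amh, Ptx3, Cd44 and Foxj1 at 0 in every library. Of 3 blood markers, Hba-a1 passed and Ptprc and Hbb-bs were at 0. The summed epiblast markers had 77.7 to 94.0 FPKM with oEV-EMT and 29.6 to 57.4 FPKM with oEV-ctrl, and thus moved with H3. Nanog, Pou5f1 and Fgf4 were higher with oEV-EMT without overlap, while Sox2, at 3.24, 1.13 and 1.23 against 3.17, 1.99 and 2.13 FPKM, overlapped and had a log2 fold change of -0.32. Over all genes tested, 18.1% were higher with oEV-EMT without overlap. The sums of the trophectoderm markers, 3097 to 4716 against 3059 to 4808 FPKM, and of the primitive endoderm markers, 26.7 to 40.9 against 28.0 to 33.9 FPKM, overlapped. Gata6 made up the largest part of the primitive endoderm sum, at a log2 fold change of -0.19 with overlap. In that list Gata4 was higher without overlap, at 11.3, 7.60 and 7.46 against 5.07, 4.19 and 4.17 FPKM (0.82). Sox17 at 0.95 and Pdgfra at 0.08 overlapped. The part of lineage composition in the histone values was not tested. The depth, read from the steps between low values, differed up to 2.07-fold, and neither group was the deeper throughout.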

How the data were processed

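Polyadenylated RNA of 6 pools of 10 blastocysts was sequenced by the authors, who assembled the aligned reads with StringTie. The submitters' processing notes name mm10, and the aligner is not given in the sources used here. The authors deposited 1 table of 55774 genes as FPKM. The study's methods speak of TPM, but the sums of the libraries differ, so the values were taken as FPKM. They hold no read counts and do not come in whole reads, so the depth is known only relatively and no counting interval was computed.

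The 11924 genes that reached 1 FPKM in 3 or more libraries were kept, and log2(FPKM + 1) was fitted with limma 3.58.1 (R 4.3.3) with a trended, robust variance and without a replicate term. P-values were adjusted by Benjamini-Hochberg over all genes tested, and a call needed an adjusted p no larger than 0.05 and a log2 fold change of 1 or more in size. On this scale the changes of genes with low values are understated. Nothing in the sources says that the pools came from separate matings, so the p-values measure the spread between these pools. The members and lists were chosen with earlier results of these data known, and the class sums are therefore given without a p.

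The genes named were the 4 with the highest mean in each class, up to 6 members per direction with the smallest unadjusted p of at most 0.05, up to 2 per direction from each list of partner genes, the 3 highest RNAs without poly(A), Slbp and Npat. Hist1h2ab, Hist2h2ac, Hist2h2aa1, Hist3h2a, the H3 genes of chromosome 3, the divergent partners, H2afy and the markers were added after their values were seen. Symbols, coordinates and transcript sequences came from GENCODE M21 (GRCm38), which matched 55141 identifiers, and promoters came from RefSeq. Python 3.11.15 with matplotlib 3.10.9 was used for the figures.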

Additional observations from a re-analysis of the deposited data

How the results depend on the processing

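The numbers did not pair the libraries, since deviations from the group means correlated at 0.119, -0.0442 and 0.0388 between libraries of the same number. With a replicate block 21 genes were called over the whole table and 1 histone gene, Hist1h2aj (adjusted p = 0.0334). Array weights called 104 genes and 1 histone gene, Hist1h3h (log2 fold change 1.03, adjusted p = 0.0463), and gave 11 histone genes higher at an unadjusted p of at most 0.05. Leaving out single libraries gave 0 to 17 calls over all genes and 0 to 2 among the histone genes, the 17 and the 2 without the third oEV-ctrl library. It also gave 2 to 8 histone genes higher and 5 to 8 lower at an unadjusted p of at most 0.05, and 10 to 16 with oEV-EMT above. The low of 2 came without the second oEV-ctrl library, 3 without the second oEV-EMT library and 4 without the first oEV-ctrl library, while 5 lower were left without the second or the third oEV-ctrl library, and 16 above were found without the third oEV-EMT library.

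Scaling by the median of ratios or the upper quartile moved the median of all genes from 0.17 to 0.01, and each gave 14 histone genes lower at an unadjusted p of at most 0.05 in place of 8. Under the upper quartile 6 histone genes had oEV-EMT above. The shares of all genes at an unadjusted p of at most 0.05, or without overlap, were not counted under any alternative given here. The log2 ratio of the sum of all members, -0.32, became -0.51 and -0.53 under these scalings, and that of H4, 0.02, became -0.18 and -0.19. The other class sums kept their direction under every scaling, although the H2A groups overlapped when each library was divided by its sum. The sum of H4 ranged from -0.15 to 0.17 when single libraries were left out, and it turned negative without the first library of either group.

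Relative to all genes, the median of the H2A genes was -0.82 with a pseudocount of 0.1, -0.50 without a filter and -0.74 to -0.61 when libraries were left out, and so kept its direction. That of the H3 genes was 0.75 with a pseudocount of 0.1 and 0.39 to 0.57 when libraries were left out. That of the H4 genes was 0.25 with a pseudocount of 0.1, -0.0117 with array weights and -0.0333 to 0.21 when libraries were left out, and that of the H2B genes -0.0573 to 0.28. Over all members the median was near 0 and turned with the setting, to -0.0414 with a filter on the mean, to -0.13 with array weights, to a range of -0.11 to 0.0362 when libraries were left out, and to -0.41 for the members sharing at most 10% of their sequence, which were 3 H1 genes only. That alternative gave no value for the other classes. Of 640 values of 40 single genes under 16 alternatives, 613 had the same direction and side of the threshold. The adjusted p of Hist1h2ad reached the threshold with array weights, at a relative log2 fold change of -1.11, and that of Rn7sk at -1.72. Relative values near 0 changed sign, with Hist1h1a at 0.10 and Slbp at 0.11 without a filter and Hist1h4n at -0.18 with array weights. When single libraries were left out they ranged from -0.24 to 0.11 for Hist1h1a, -0.36 to 0.00594 for Hist1h2ae, -0.0933 to 0.26 for Hist1h2bc, -0.12 to 0.31 for Hist1h2bg, -0.12 to 0.35 for Hist1h2bl, -0.36 to 0.0357 for Hist1h4d, -0.23 to 0.17 for Hist1h4n and -0.12 to 0.0757 for Slbp.

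Read counts could not be recovered, and genes near 1 FPKM rest on few fragments of unknown number. Reads were divided between near-copies in a way that the sources do not state, and this limits every value of a single gene more than the class sums.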
